A study of Mus musculus with 768 samples.

Results

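The matrix CAF-like cells described here are single cells of 2 mammary tumors, 96 from the first and 90 from the second, chosen by their measured levels of 12 marker genes. Of the 768 wells in the series, 51 were left out by a filter on quality, 13 of tumor 1 and 38 of tumor 2. A well was kept with at least 10000 reads of mouse genes and at least 1000 detected genes. In each kept well 2 scores were computed as means of log2(RPKM + 1), where RPKM is reads per kilobase of gene model, scaled to the reads of the well. The matrix score M was taken over 6 matrix markers (*Dcn*, *Lum*, *Mfap5*, *Olfml3*, *Smoc2* and *Serpinf1*) and the vascular score V over 6 markers of vascular CAFs (*Rgs5*, *Higd1b*, *Kcnj8*, *Rgs4*, *Abcc9* and *Gja4*). A cell was a member when M was at least 4 and above V.

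Both tumors were late carcinomas of 14-week-old MMTV-PyMT mice on an FVB/N background (FVB/N-Tg(MMTVPyVT)634Mul/J), with no treatment given in the labels, and no normal tissue was analysed here. In this model the promoter of the mouse mammary tumor virus drives the polyoma middle T oncogene in mammary epithelium, so that the transgene itself is not directed to fibroblasts. Live cells lacking EpCAM, CD45, CD31 and NG2 at the surface were sorted from each tumor onto 1 plate, 1 cell per well, for Smart-seq2 with ERCC spike-in RNA. The tumor was therefore the replicate (n = 2), and tumor and plate cannot be told apart. The 96 members of tumor 1 made up 25.88% of its kept wells (exact binomial 95% interval 21.49 to 30.65%) and the 90 of tumor 2 made up 26.01% (21.47 to 30.97%), or 25.9% ± 0.0958 (SD, n = 2 tumors). The intervals cover counting error only. Below, paired values are for tumor 1 and then tumor 2.

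Fibroblasts of the mammary gland build the collagenous stroma around ducts and fat. They secrete fibrillar collagens, the small proteoglycans that space the fibrils, and the enzymes that crosslink or cut them. In tumors such cells are called cancer-associated fibroblasts (CAFs), a name that also covers perivascular cells. Fibroblasts that resemble those of normal connective tissue are often recognized by PDGFRα and decorin, whereas perivascular cells carry the regulator of G protein signaling RGS5 and potassium channel subunits.

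Members were sequenced to a median of 262024 and 232394 reads of mouse genes per cell, with a lowest of 25703 and 14602 and a highest of 539238 and 498291. They had a median of 5485 and 5465 detected genes and 6.83 and 6.3% of reads from spike-ins. The other kept wells had fewer genes, at a median of 4056 and 4222, and more spike-in reads, at 14.4 and 12.2%, with 202729 and 191482 reads. Depth and RNA content thus moved with membership, and their part in the differences given below was not tested. No pair of wells held identical counts.

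The M scores of the members had a median of 10.25 and 9.71, and their V scores a median of 1.01 and 0.98. All but 1 and 5 members lay more than 1 above the cut on M. The member closest to that cut had M = 4.07 and the nearest well outside had M = 3.95, both with V below M. On the other border, the closest member had M = 5.56 against V = 5.54 and the closest well outside had M = 4.19 against V = 4.32. In 7 and 5 members V also reached 4, and 7 and 5 wells outside reached an M of 4 with a higher V. These values chose the cells and are given as a description.

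**Figure D1:**
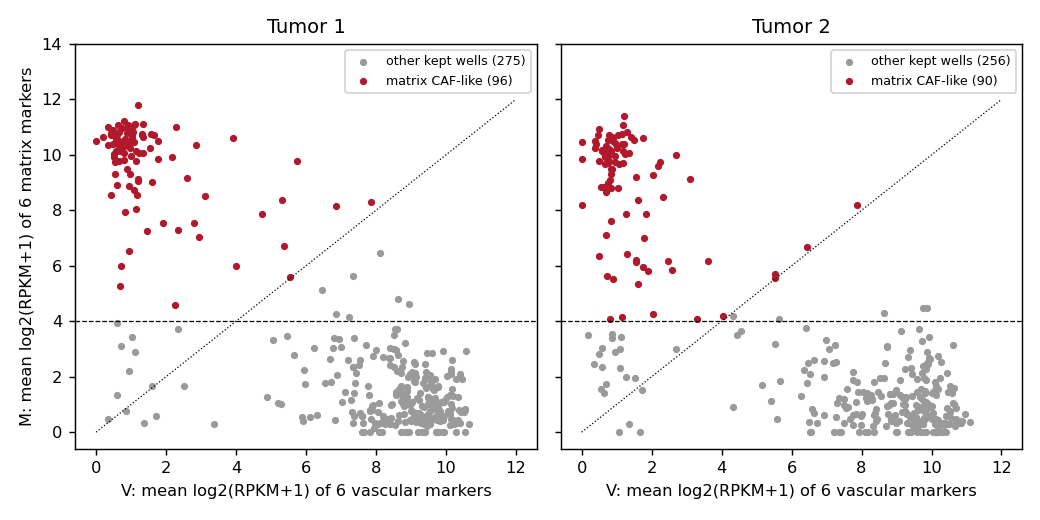
Vascular score V (x axis) against matrix score M (y axis), both as mean log2(RPKM + 1) of 6 markers, for each kept well of tumor 1 and tumor 2. The dashed line is the cut at M = 4 and the dotted line is M = V. Of the members (red), 89 and 70 lie at an M of at least 7, other wells crowd around a median V of 8.97 and 9.23, and few wells lie between.

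The label was checked on genes that the rule did not use. *Pdgfra*, the platelet-derived growth factor receptor α of connective tissue fibroblasts, was read in 89 and 75 members at a mean log2(RPKM + 1) of 5.65 and 4.70, against 0.16 and 0.087 in the other kept wells. After each cell was thinned to 50000 reads, which left out 7 and 5 members, it was read in 93.3 and 81.2% of the members and 2.26 and 3.73% of the other wells. *Pdgfrb*, the β receptor shared by fibroblasts and mural cells, was read in 96 and 89 members, and *Vim*, which encodes the intermediate filament vimentin, in 95 and 90. Neither sets the members apart, as *Pdgfrb* was read in 100 and 100% of the other wells and *Vim* in 99.3 and 98%. The members were thus fibroblast-like by a marker that the rule did not use.

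Genes of the sort were close to or at 0. *Ptprc* (CD45) was read in 0 and 0 members, a count of 0 that leaves room for 3.12 and 3.33% of cells with a read (3 counts of the total), and *Pecam1* (CD31) in 0 and 2. *Epcam* was read in 8 and 14 members, or 8.33 and 15.6%, beside 4 and 8.98% of the other wells. In contrast, *Cspg4*, which encodes the NG2 protein removed by the sort, was read in 71 and 70 members at 2.08 and 2.60, and at 3.93 and 4.40 in the other wells. *Csn3*, the milk protein κ-casein, was read in 31 and 49 members and in 23.3 and 59% of the other wells, shares that differed more between the tumors than between the kinds of cell. Its mean log2(RPKM + 1) was 1.53 and 3.06 in the members and 1.24 and 3.68 in the other wells. On the scale of summed reads defined below, its log2 ratios were -2.22 and -2.21 against all other wells but -0.43 and -0.16 against the vascular-like wells alone.

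As whole lists, the markers of other cell types were low. The summed level of 11 epithelial markers, as a mean over the list, ran from 0 to 3.28 and 2.52 with medians of 0.17 and 0.43, beside medians of 0 and 0.44 in the other wells, and 3 and 1 of the 11 had no read in any member. For 7 endothelial markers the median was 0 and the highest 1.34 and 1.65, with 3 and 3 unread. The 90th percentile of this list was 0.71 and 0.29 in the members and 0.13 and 0.12 in the other wells. *Tek*, an angiopoietin receptor and the only one of the 7 abundant enough to be compared, was read in 19 and 6 members at 0.89 and 0.31, against 0 and 0.029 in the other wells, and varied between members by the test described below. For 8 leukocyte markers the median was 0 and the highest 1.44 and 1.36, with 3 and 3 unread. Of 5 adipocyte markers, 4 and 5 were unread, and 5 Schwann cell markers reached at most 2.3 in either tumor. The 10 mural markers, which include *Pdgfrb*, had medians of 2.41 and 2.47 in the members and 6.60 and 6.43 in the other wells. Their part in the results was not tested.

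Of all genes, 17% were read in at least 50% of the members of both tumors (4156 of 24490). Ranked by mean RPKM, *Mgp* (matrix Gla protein, an inhibitor of calcification) came first at a mean log2(RPKM + 1) of 12.28 and 12.54. *Sparc*, a collagen-binding matricellular protein, had 12.23 and 12.27, and *Bgn*, the small proteoglycan biglycan, 12 in both tumors. Both were read in every member, with lowest, median and highest values of 9.37, 12.36 and 13.71 in tumor 1 and 6.83, 12.37 and 14.39 in tumor 2 for *Sparc* and of 8.63, 12.14 and 13.53 in tumor 1 and 8.99, 12.18 and 13.35 in tumor 2 for *Bgn*. The medians of each gene were nearly the same in both tumors.

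Others among the 20 most abundant were *Spp1*, *Igfbp7*, *Postn*, *Col3a1*, *Col1a1*, *Col1a2*, *Lgals1*, *Serpine2* and *Cst3*, besides the rule genes *Dcn* and *Serpinf1*, the histocompatibility light chain *B2m*, *S100a6* and *Actb*. The ribosomal RNA precursor *Rn45s* (11.21 and 11.53) and the nuclear RNA *Malat1* (10.06 and 9.36) were also in this group. *Col1a1* and *Col1a2*, the chains of type I collagen, were at 10.91 and 10.42 for the first and 10.91 and 10.54 for the second, and *Col3a1*, the chain of type III collagen, had 11.08 and 10.74. *Crabp1*, a cytosolic carrier of retinoic acid, reached the first 20 although it was read in 82 and 60 members only.

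**Figure D2:**
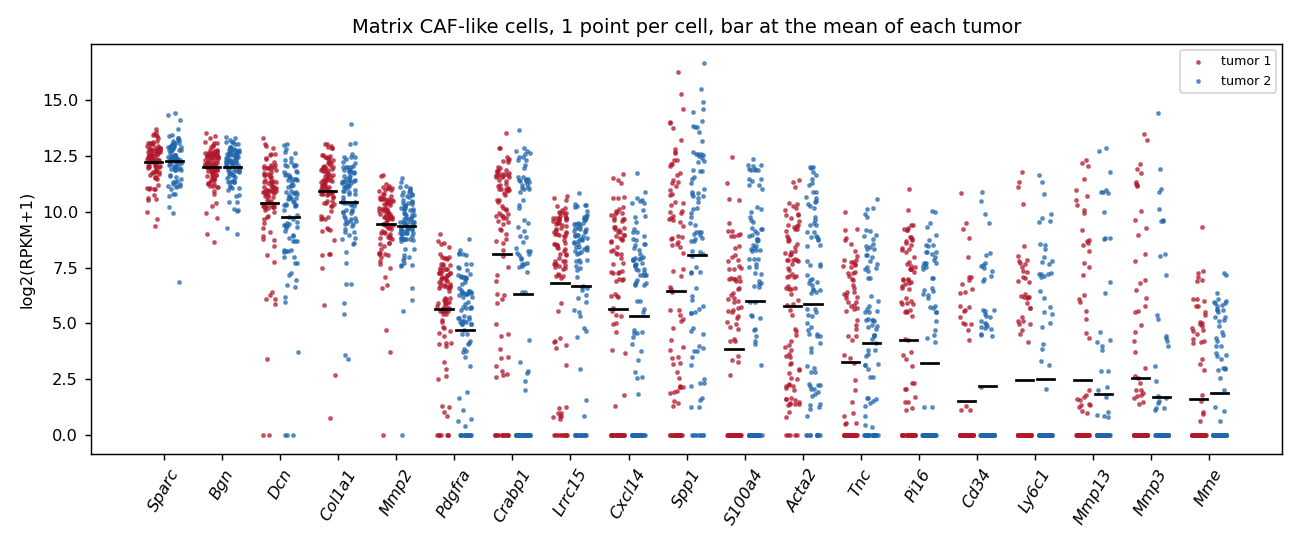
Level of 19 genes, as log2(RPKM + 1), in each matrix CAF-like cell of tumor 1 (red, 96 cells) and tumor 2 (blue, 90 cells), with a bar at the mean of each tumor. *Sparc* and *Bgn* form tight bands near 12, whereas *Crabp1*, *Spp1*, *S100a4*, *Mmp13* and *Mmp3* are spread from 0 to above 12.

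To see how these cells differ from the rest of the sort, reads were summed over the members and over the other kept wells of each tumor, scaled to CPM (counts per 1000000 reads of mouse genes), and compared as a log2 ratio with 1 CPM added to both. Because the wells were divided by 12 of these genes, the ratio is a description without a test. Of 11719 genes that averaged an RPKM of 1 or more, the 12 rule genes left out, 3.63% were at least 4-fold higher in the members of both tumors and 3.88% at least 4-fold lower. The median log2 ratio of all compared genes was -0.31. With TMM factors this median was -0.079, and 4.18% were higher and 3.14% lower. Scaled to spike-in reads the median was 0.49, with 5.74% higher and 1.96% lower, so that a ratio near 0 has no fixed direction. As a difference of mean log2(RPKM + 1), which weighs every cell alike, 2.37% were higher and 1.19% lower, and 39.3% of the higher and 25.9% of the lower calls were kept. These shares over all genes are the background for each list below. Against the vascular-like wells alone (V of at least 4 and above M), 4.51% were higher and 3.81% lower.

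Genes were ranked by the smaller of their ratios in the 2 tumors, and the first 15 included matrix proteins, proteases and a receptor. *Cilp*, a cartilage intermediate layer protein, had 2093 and 1817 CPM in the members and 2.12 and 2 in the other wells, a log2 ratio of 9.39 and 9.24. *Crabp1* had log2 ratios of 9.54 and 8.82, *Fndc1*, a fibronectin type III domain protein, 8.39 and 9.02, and *Mfap4*, a microfibril-associated glycoprotein, 8.16 and 7.94. *Svep1*, a large adhesive matrix protein, had 7.32 and 7.96, *Pdgfra* 7.20 and 8.33, *Cpxm1* 6.44 and 7.33 and *Aldh1a2*, which makes retinoic acid, 6.29 and 6.22. *Lrrc15*, a leucine-rich repeat membrane protein found on activated fibroblasts, had 2604 and 2351 CPM against 6.67 and 26.2, and log2 ratios of 8.41 and 6.44. *Pi16*, a secreted peptidase inhibitor, had 7.90 and 7.24. *Mmp3*, *Mmp13*, *Thbs4*, *Efemp1* and *Ogn* were also among the 15, but each was read in fewer than 40% of the members of either tumor. As a difference of mean log2(RPKM + 1), averaged over the 2 tumors, these 5 came to 1.89 for *Mmp3*, 1.94 for *Mmp13*, 1.71 for *Thbs4*, 0.95 for *Efemp1* and 1.75 for *Ogn*, all short of 4-fold. Taken per tumor, *Mmp3* (2.57 and 1.70 in the members against 0.30 and 0.19) and *Mmp13* (2.49 and 1.85 against 0.20 and 0.26) were short of it in tumor 2 only. So was *Aldh1a2*, with levels of 3.73 and 2.02 in the members and 0.13 and 0.10 in the other wells.

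Of 14 collagens, 4 were at least 4-fold higher and none at least 4-fold lower, beside 3.63% and 3.88% of all compared genes, and the median log2 ratio of the list was 1.56. The 4 were *Col1a1* (2.77 and 2.66), *Col1a2* (2.29 and 2.43), the fibril-associated *Col12a1* (3.46 and 3.36) and *Col14a1* (6.43 and 4.76). *Col3a1* had log2 ratios of 1.63 and 1.70, and the beaded-filament chains *Col6a1* and *Col6a2* had 1.64 and 1.78 and then 1.39 and 1.5. Basement membrane genes stood apart from these. Their median log2 ratio was 0.0079 over 13 genes. Of these none was 4-fold higher and 2 (*Col18a1* and *Nid2*) were 4-fold lower. The type IV collagen chains had -1.32 and -1.90 (*Col4a1*) and -1.16 and -1.60 (*Col4a2*).

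Of 12 proteoglycans, 4 were at least 4-fold higher, with a median log2 ratio of 1.86. *Ogn* and *Omd*, which encode the leucine-rich osteoglycin and osteomodulin, were higher. *Ogn* had log2 ratios of 6.27 and 6.68 and was read in 25 and 29 members, and *Omd* had 5.77 and 7.06 and was read in 49 and 38. *Aspn* (asporin) went the other way at -1.69 and -1.72, short of 4-fold. Of 16 elastic fibre genes, 7 were at least 4-fold higher, with a median of 2.15. Among them were the fibulins *Fbln1* (6.07 and 5.85) and *Fbln2* (4.16 and 3.88), elastin itself (*Eln*, 3.09 and 3.06) and *Efemp1* (6.44 and 7.12). *Fbn1*, the fibrillin of the microfibril core, had 1.65 and 1.63 and a level of 7.97 and 8.19. *Ltbp4*, which tethers latent TGF-β to fibres, had -0.84 and -0.89.

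Of 15 genes for collagen processing, 3 were at least 4-fold higher, all of them named here. The lysyl oxidases *Lox* and *Loxl1*, which crosslink collagen and elastin, had log2 ratios of 4.15 and 4.22 for *Lox* and 3.89 and 3.75 for *Loxl1*, and *Pcolce2* had 15.5 and 25.9 CPM against 0.0347 and 0.389. In contrast, the collagen chaperone *Serpinh1* and the procollagen C-proteinase *Bmp1* were within 2-fold, at 0.37 and 0.39 for *Serpinh1* and 0.21 and 0.22 for *Bmp1*. Of 18 proteases and inhibitors, 8 were at least 4-fold higher. *Mmp2*, gelatinase A, was at 9.43 and 9.35 in the members and 3.78 and 4.34 in the other wells, with log2 ratios of 3.36 and 3.14, and was read in 95 and 89 members. The membrane-type *Mmp14*, which activates it, was at 9.19 and 8.93 with log2 ratios of 1.27 and 1.02, and the inhibitors had 1.43 and 1.88 (*Timp1*) and 1.02 and 1.21 (*Timp2*). Of 19 matricellular genes, 7 were at least 4-fold higher and 1 at least 4-fold lower. The lower one was *Sparcl1* (-2.40 and -2.72). The higher ones included *Spon1* (2.88 and 2.78), *Thbs2* (2.69 and 2.09), *Thbs4* (8.10 and 8.05) and *Cthrc1* (4.77 and 4.38), whereas *Postn* reached 1.32 and 1.34 and *Fn1* 1.70 and 1.49.

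**Figure D3:**
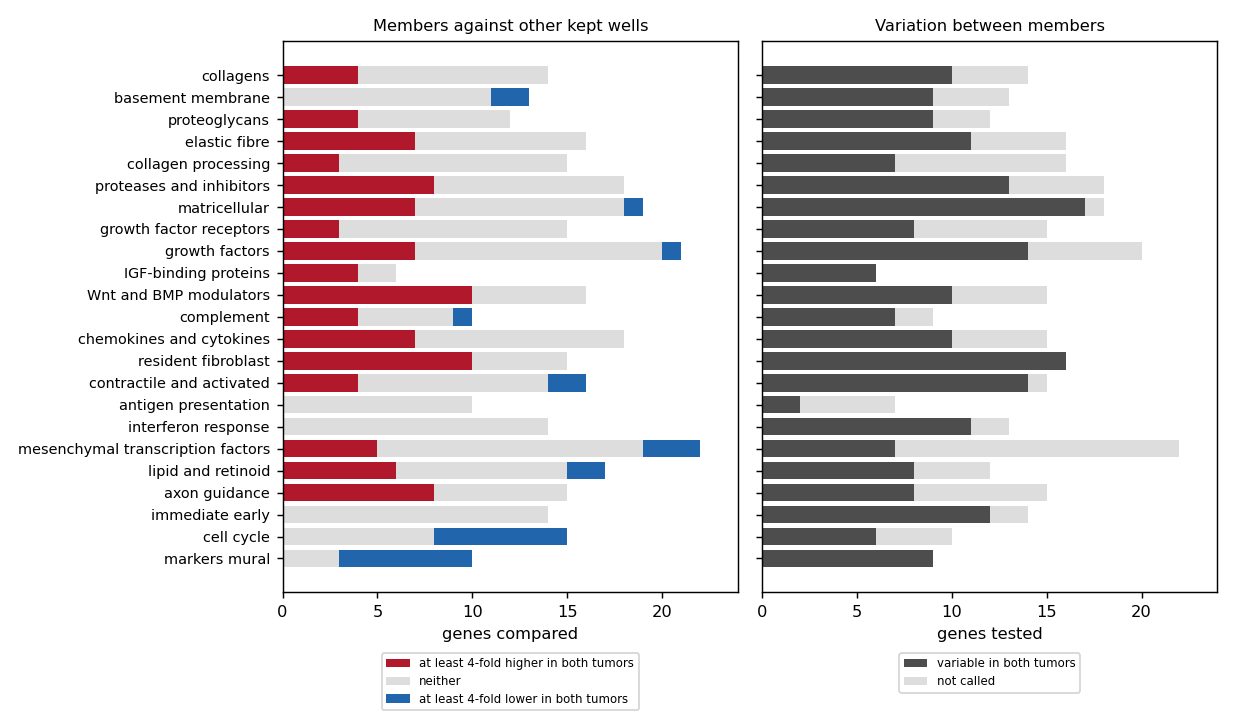
Number of genes in 23 lists, by ratio of members to other kept wells (left: red at least 4-fold higher and blue at least 4-fold lower in both tumors, grey neither) and by the test of variation between members (right: dark called in both tumors, grey not). Of 15 resident fibroblast genes 10 are at least 4-fold higher and of 10 mural markers 7 are at least 4-fold lower.

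Among receptors, 3 of 15 were at least 4-fold higher, beside 3.63% of all compared genes. *Tgfbr2*, the type II TGF-β receptor, was at 7.33 and 6.72 with log2 ratios of 2.66 and 2.48, and *Fgfr1* had 3.04 and 1.94, under the cut in 1 tumor. *Pdgfrb* was lower in the members at -1.22 and -1.53, while the receptors of oncostatin M and interleukin 1 had -0.35 and -0.66 (*Osmr*) and -0.65 and -1.04 (*Il1r1*). Of 21 growth factors, 7 were at least 4-fold higher and 1 at least 4-fold lower. *Igf1*, the insulin-like growth factor, had 4.04 and 3.79, *Vegfc*, a growth factor of lymphatic vessels, 5.85 and 5.57, and *Angptl4* 3.39 and 3.10. *Tgfb3* had -0.002 and 0.21. IGF-binding proteins had a median log2 ratio of 3.44, and 4 of 6 were at least 4-fold higher, namely *Igfbp2* (5.11 and 4.14), *Igfbp3* (5.11 and 2.83), *Igfbp4* (2.81 and 3.00) and *Igfbp6* (6.03 and 6.17). *Igfbp7* was high in both kinds of well, at 11.23 and 11.22 in the members and 11.85 and 11.37 in the other wells.

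Against the same background of 3.63%, modulators of Wnt and BMP signals had the highest median of the lists with more than 10 compared genes, 4.05 on the log2 scale, with 10 of 16 at least 4-fold higher. Among the secreted Wnt antagonists, *Sfrp1* had log2 ratios of 3.67 and 4.08 and *Sfrp2* of 5.10 and 7.77. *Sfrp4* had 34.8 and 44.6 CPM in the members against 0.0521 and 0 in the other wells. The broadly read *Fstl1*, by contrast, had 1.03 and 1.16 and *Nbl1* -0.86 and -0.30. Of 15 axon guidance genes, 8 were at least 4-fold higher, *Slit2* among them (4.99 and 6.11). Of 17 lipid and retinoid genes, 6 were higher, including *Apod*, the lipid carrier apolipoprotein D (5.29 and 4.56), and *Aldh1a2*, and 2 were lower.

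Of 18 chemokines and cytokines, 7 were at least 4-fold higher and none at least 4-fold lower, beside 3.63% and 3.88% of all compared genes. *Cxcl14*, a chemokine expressed by stromal cells, was at 5.62 and 5.31 in the members and 0.44 and 0.29 in the other wells, with log2 ratios of 5.44 and 7.59. *Il33*, a nuclear alarmin, had 6.22 and 3.36, and *Csf1*, the growth factor of macrophages, 2.43 and 2.88. *Cxcl12* came to 2.02 and 1.65, under 4-fold in tumor 2, and *Ccl2*, which attracts monocytes, had -0.67 and -1.18. Of 10 complement genes, 4 were higher and 1 lower. *Cd59a*, a regulator that protects cells from complement, had 3.70 and 2.46, and *Serping1*, the C1 inhibitor, was at 9.68 and 8.56 and hardly differed, at -0.021 and -0.087.

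Of 22 transcription factors, 5 were at least 4-fold higher and 3 at least 4-fold lower. The homeobox factor *Prrx2* was low in the other wells, with member levels of 3.94 and 3.81 against 0.18 and 0.24, whereas its relative *Prrx1* was at 5.14 and 5.37 against 6.33 and 6.31. *Meox2* was lower at -2.99 and -2.37, *Tcf4* had 0.53 and 0.45 and *Snai2* -0.097 and -0.14. Of 20 Hox genes compared, none differed 4-fold in both tumors, beside 3.63% and 3.88% of all genes. Among hormone receptors, *Ghr*, the growth hormone receptor, was the most abundant at 4.44 and 3.64, and *Esr1*, the estrogen receptor α, was read in 6 and 6 members.

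Genes lower in the members included many of the mural list. The 10 lowest, by the ratio nearer 0 of the 2 tumors, were *Olfr558*, *H2-M9*, *Olfr78*, *Ephx3*, *Dlk1*, *Apold1*, *Emcn*, *Gpr4*, *Myh11* and *Cox4i2*. *Olfr558*, an olfactory-type receptor, had log2 ratios of -8.24 and -8.37 and 1.05 and 0.574 CPM in the members. *Apold1* had -5.92 and -6.28 and 8.9 and 6.84 CPM, and *Cox4i2*, a subunit of cytochrome oxidase, -5.76 and -5.51 and 3.68 and 4.21 CPM. Few reads of the members thus stand behind these ratios. As a difference of mean log2(RPKM + 1), *Olfr78*, *Ephx3*, *Dlk1* and *Gpr4* were no longer 4-fold lower in both tumors, at means of -1.24, -1.79, -1.95 and -2.12. Of 10 mural markers 7 were at least 4-fold lower, beside 3.88% of all compared genes, among them *Mcam* (-3.26 and -3.55), *Des*, which encodes desmin (-5.72 and -3.66), and *Epas1* (-3.39 and -3.67).

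The contractile and activated list was split. *Cdh11*, a mesenchymal cadherin, and *Lrrc15* were higher, at 5.04 and 4.74 for *Cdh11*, with 4 of 16 genes higher and 2 lower in all. *Acta2*, the smooth muscle actin often used as a CAF marker, was at 5.79 and 5.86 in the members and 8.84 and 7.85 in the other wells, with log2 ratios of -2.36 and -1.18. The light chain gene *Myl9* had -3.00 and -2.18 and *Tpm1* -1.35 and -0.68. Of 15 cell cycle genes, 7 were at least 4-fold lower, beside the same 3.88%. At least 5 of 8 mitosis genes reached an RPKM of 1 in 2 and 3 members, and in 22 and 21 other wells.

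None of 10 antigen presentation, 14 interferon response, 14 immediate early and 79 ribosomal protein genes differed 4-fold in both tumors. With 3.63% of all genes higher and 3.88% lower, a count of 0 in the shorter of these lists is near the background. *B2m* had log2 ratios of -0.12 and -0.14, *Ifitm3* -0.77 and -0.92 and *Fos* -0.34 and -0.38. The median of the ribosomal protein genes was -0.43, near the -0.31 of all genes.

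Variation between the members was then measured within each tumor. For each gene the squared coefficient of variation over cells was compared with that of the spike-ins at the same mean, by a chi-square test after Brennecke and colleagues, which asks for a biological coefficient of variation (CV, the SD beyond spike-in noise over the mean) above 0.5. This tests the cells of 1 tumor against spike-in noise, and it was independent of the choice of members only for genes outside the 12 markers and in so far as they do not follow M. Of 10065 genes with a mean of at least 1 read in both tumors, 1546 (15.4%) were called in both at a Benjamini-Hochberg adjusted p of at most 0.01. Tumor 1 alone gave 3522 of 10563 tested genes and tumor 2 2772 of 10540. With cells thinned to 50000 reads, which left out 12 members, 6396 genes had enough reads to be tested and 8.1% of them were called. With the highest cell of each gene left out, 8.19% of the 10065 were called.

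**Figure D4:**
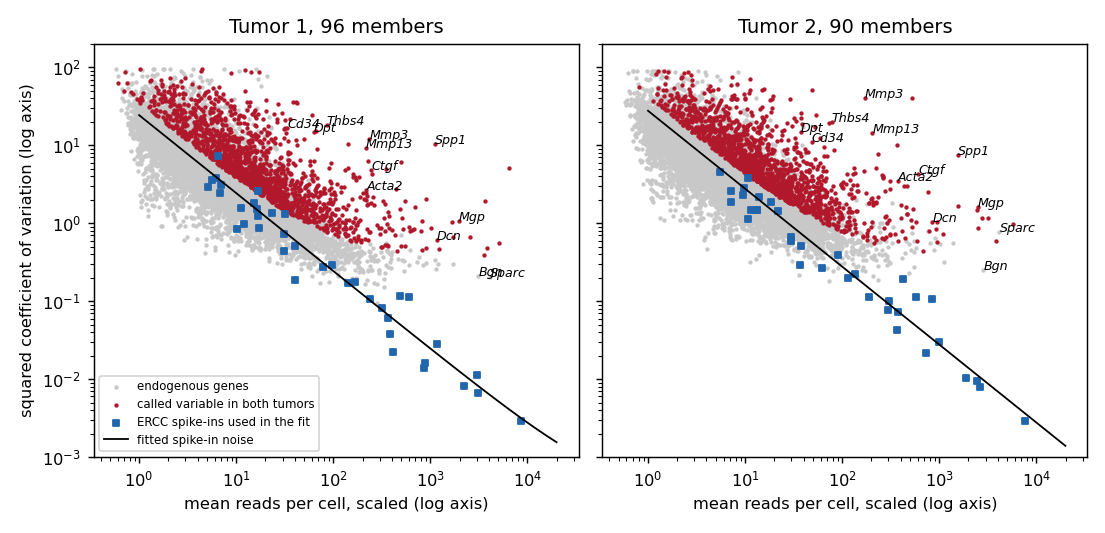
Squared coefficient of variation against mean scaled reads per cell, both on log axes, for genes tested in tumor 1 (left, 96 cells) and tumor 2 (right, 90 cells). Blue squares are spike-ins, the line is their fitted noise, and red points are the 1546 genes called in both tumors. *Spp1*, *Mmp3*, *Mmp13* and *Thbs4* lie far above the line, while *Bgn* lies close to the lower edge of genes of its level.

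Called genes were spread unevenly over the lists. All 16 resident fibroblast genes were called, as were 17 of 18 matricellular, 14 of 15 contractile, 12 of 14 immediate early, 11 of 13 interferon response and 13 of 18 protease genes. Markers of other cells were called too, at 9 of 9 mural, 3 of 3 dCAF-like, 3 of 3 epithelial and 1 of 1 endothelial, and so were 6 of 10 cell cycle genes. In contrast, 0 of 51 ribosomal protein genes, 0 of 11 Hox genes, 0 of 2 Schwann cell and 0 of 1 leukocyte markers were called. Collagens were called in 10 of 14, transcription factors in 7 of 22 and antigen presentation in 2 of 7. The background was 15.4% of all tested genes, and 21.8% of genes with a mean of at least 10 reads were called. The share called was thus higher among abundant genes, and the lists were not matched for abundance. The median biological CV of tested genes was 0.733 in tumor 1 and 0.496 in tumor 2. Among abundant matrix genes, *Bgn* had a biological CV of 0.449 and 0.491, *Col6a1* 0.534 and 0.733, *Mmp14* 0.543 and 0.544, *Loxl1* 0.452 and 0.534 and *Serpinh1* 0.0515 and 0.252, and none of these 5 was called in both tumors.

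Genes were ordered by the less extreme of their 2 ranks in the test statistic, which grows with abundance as well as with the CV. The first 25, called the most variable here, had biological CVs from 2.04 to 9.55, and 14 of them were also at least 4-fold higher in the members than in the other wells, as were 16.1% of all 1546 called genes and 3.63% of all compared genes. The read filter and the order of this test favour genes that are abundant in the members, and compared genes were filtered over all kept wells. The overlap is therefore a description. Without the highest cell of each gene, *Chil1*, *Chad* and *Reg1* were no longer called. Among the 25, the largest adjusted p was 1.22e-181 in tumor 1 and 1.73e-144 in tumor 2 (chi-square test, Benjamini-Hochberg). *Spp1*, which encodes the secreted phosphoprotein osteopontin, came first in that order, with a biological CV of 3.2 and 2.76, lower than that of several others of the 25. It was without a read in 20 and 8 members and at or above a log2(RPKM + 1) of 8 in 45 and 52. Its lowest, median and highest levels were 0, 6.88 and 16.26 in tumor 1 and 0, 8.89 and 16.66 in tumor 2. The thrombospondins *Thbs4* and *Thbs1* had CVs of 4.26 and 4.44 for *Thbs4* and 3.22 and 2.77 for *Thbs1*. *Thbs4* was read in 26 and 26 members, *Thbs1* in 78 and 73. The matrix genes *Tnn*, *Col10a1*, *Tnxb*, *Chad* and *Dpt*, the complement component *C3*, the growth factor-binding *Igfbp5*, the CCN family genes *Ctgf* and *Wisp2*, the Wnt antagonist *Sfrp4* and the lipid carrier *Apod* belonged to the same 25. So did *Ccna2* of the cell cycle list. *Reg1* and *Chil1*, secreted lectin-like proteins, were read in 15 and 13 members for *Reg1* and 3 and 5 for *Chil1*, and *Chchd10*, a mitochondrial protein, in 62 and 56. The rule genes *Rgs4* and *Rgs5* also ranked among the 25. They helped to choose the cells, and the part of the rule in their variation was not tested.

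*Mmp3* (stromelysin 1), *Mmp13* (collagenase 3) and *Mmp10* (stromelysin 2) were all among the 25. *Mmp13* was read in 37 and 27 members, at or above 8 in 16 and 11. *Mmp3* was read in 38 and 26 members, at or above 8 in 14 and 10. *Mmp10* was read in 7 and 9 members. Low values were common too, with 11 and 9 members between 0 and 3 for *Mmp13*, a range in which other wells also had reads. After thinning, *Mmp13* was read in 32.6 and 24.7% of the members and 3.4 and 2.9% of the other wells. Their summed reads came to 907 and 1229 CPM for *Mmp3* and 996 and 1316 for *Mmp13*. The 3 genes reached an RPKM of 1 together in 3 and 5 members, and none of them did in 37 and 50. Across cells, the Spearman correlation of *Mmp13* with *Mmp10* was 0.34 and 0.34, that of *Mmp3* with *Mmp13* 0.074 and 0.33 and that of *Mmp3* with *Mmp10* 0.067 and 0.39.

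The 3 genes lie in a cluster of metalloproteinase genes on chromosome 9. The 250 bases before each start are shown because the genes share high variation and a motif (RefSeq, GRCm38.p6, the assembly of mm10, plus strand, 5′ to 3′). Capitals mark TGANTCA, the AP-1 binding motif, which was searched on both strands and reads the same way on each. The motif was chosen after the values were seen. *Mmp13* is shown at chr9:7272264-7272513, *Mmp3* at chr9:7445572-7445821 and *Mmp10* at chr9:7502092-7502341.
Mmp13: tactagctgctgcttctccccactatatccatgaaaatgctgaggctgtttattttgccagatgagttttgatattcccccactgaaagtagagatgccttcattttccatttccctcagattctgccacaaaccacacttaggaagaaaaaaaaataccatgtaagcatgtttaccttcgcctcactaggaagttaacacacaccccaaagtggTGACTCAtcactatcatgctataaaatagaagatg
Mmp3: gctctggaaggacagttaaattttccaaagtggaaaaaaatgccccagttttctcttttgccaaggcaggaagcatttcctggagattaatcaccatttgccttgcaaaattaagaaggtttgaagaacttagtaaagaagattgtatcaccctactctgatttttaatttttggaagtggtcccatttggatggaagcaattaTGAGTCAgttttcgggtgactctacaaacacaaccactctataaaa
Mmp10: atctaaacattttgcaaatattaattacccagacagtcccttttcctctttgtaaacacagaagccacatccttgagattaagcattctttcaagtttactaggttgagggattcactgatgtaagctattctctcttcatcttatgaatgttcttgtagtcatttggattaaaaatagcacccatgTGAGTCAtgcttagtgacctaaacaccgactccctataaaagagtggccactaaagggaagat
Each window holds 1 match, beginning 35, 46 and 63 bases before the start. Of all 32851 windows of this length, 6.75% hold the motif. The 3 neighbouring genes are shown because they share it, so this share gives no measure of enrichment. A match describes the letters and does not show binding.

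Principal components summarized which genes varied together. They were computed on log2(RPKM + 1) of the 500 most variable genes, centred within each tumor, and the first 4 held 8.64, 5.86, 5.26 and 4.35% of the variance. Computed in each tumor alone, the components that matched best, which were not always of the same rank, had gene weights that correlated at 0.53, 0.51, 0.52 and 0.49 across the 500 genes. As genes from both tumors chose the 500, this is a description, and genes are not independent replicates.

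At one end of component 1 lay *Crabp1*, *Ly6a*, *Lrrc15*, *Cilp*, *Mfap4*, *Serpina3n*, *Cxcl14*, *Igfbp2*, *Sfrp2* and *Itm2a*, and at the other *Sparcl1*, *Cpe*, *Slc29a1*, *Rgs4*, *Gucy1a3*, *Rgs5*, *Mcam*, *Cp*, *Tm4sf1* and *Ano1*. Its scores went with the spike-in share (Spearman correlation 0.63 and 0.49), the number of detected genes (-0.59 and -0.44), M (-0.38 and -0.71) and V (0.46 and 0.42), so that it is close to the rule and to RNA content. *Rgs4* and *Rgs5* are themselves genes of the rule. Within it, *Crabp1* and *Lrrc15* tended to be high in the same cells (correlation 0.59 and 0.56), as did *Lrrc15* and *Col1a1* (0.68 and 0.66) and *Crabp1* and *Pdgfra* (0.52 and 0.63). *Crabp1* had no read in 14 and 30 members and was at or above 8 in 64 and 44.

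Component 2 ran from *1500015O10Rik*, *Cthrc1*, *Igfbp5*, *Fndc1*, *C1qtnf3*, *Sod3*, *Fhl1*, *Cd200*, *Anxa3* and *Ackr3* to *Sept4*, *Cygb*, *Mmp11*, *Heyl*, *Crabp1*, *Apod*, *Lpl*, *Angpt2* and *F2r*, among others. *Cthrc1*, a secreted collagen triple helix repeat protein, was read in 36 and 35 members at 2.62 and 3.05. *Cygb*, the globin of matrix-producing cells, was read in 88 and 71 at 6.69 and 5.28. Their correlation was -0.37 and -0.42. Depth had little relation to this component, with correlations of -0.065 and -0.10 for reads and -0.19 and 0.15 for the spike-in share, while those with M were -0.24 and -0.38.

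Component 3 had part of the resident fibroblast list at one end (*Pi16*, *Cd34*, *Ly6c1* and *Dpt*) and part of the contractile list at the other (*Tagln*, *Acta2* and *Myl9*). Other resident fibroblast genes lay at ends of other components, *Ly6a* of component 1 and *Anxa3* and *Ackr3* of component 2. At its first end were *Pi16*, *Cd34*, *Ly6c1*, *Dpt*, *Efemp1*, *Cxcl12*, *Eln*, *Ogn*, *Il33* and *Scara5*. At its second end were *1500015O10Rik*, *Tnc*, *Tagln*, *Spp1*, *Igfbp3*, *Acta2*, *Myl9*, *Col12a1*, *Gpx3* and *Ddah1*. Its scores had little relation to reads (-0.069 and 0.0017), spike-in share (0.18 and -0.12) or V (0.056 and -0.16), and some to M (0.45 and 0.27). In each tumor alone, the component that best matched this one was number 3 in tumor 1 and number 5 in tumor 2. When the 10 genes of each end of that component were taken from tumor 1 and measured in tumor 2, their median pairwise correlation was 0.25 within the first end, 0.23 within the second and -0.11 between the ends. From tumor 2 to tumor 1 the values were 0.28, 0.27 and -0.096. Over all pairs of the 500 genes the median was 0.017 in tumor 2 and 0.013 in tumor 1. As the match used weights from both tumors, these values are a description. They were not particular to component 3. Between the ends, component 1 had -0.24 from tumor 1 to tumor 2 and -0.14 the other way, and component 2 had -0.10 and -0.13. Component 4 had -0.044 and 0.028.

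**Figure D5:**
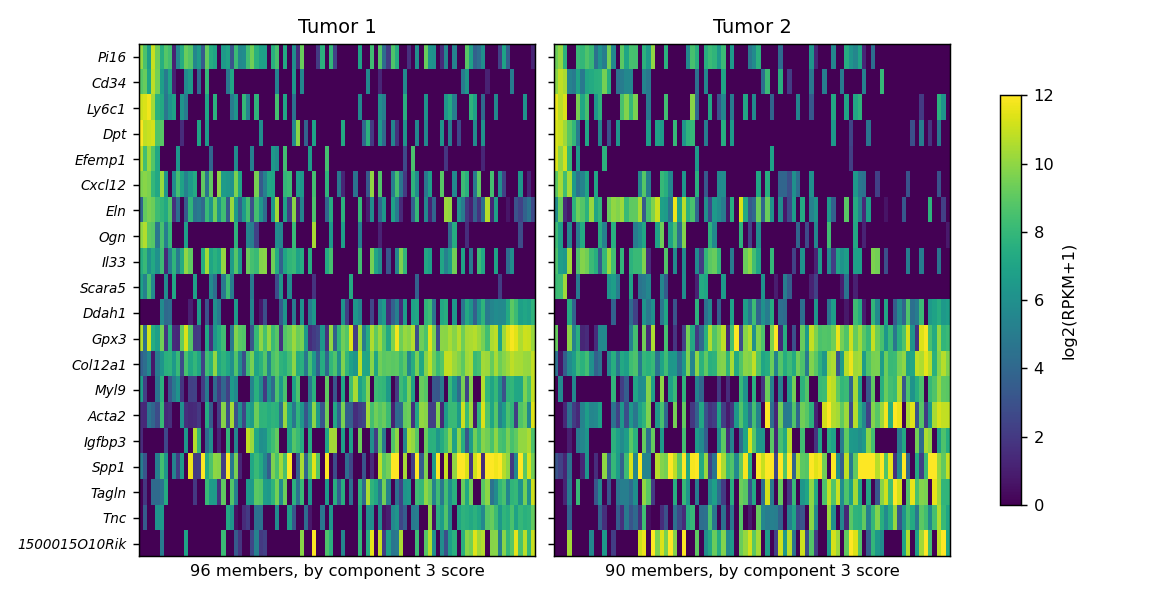
Level, as log2(RPKM + 1) on the colour scale, of the 20 genes at the ends of component 3 (rows) in the members of tumor 1 (left) and tumor 2 (right), ordered by their score on it. A few cells at the left edge of each panel carry *Pi16*, *Cd34*, *Ly6c1*, *Dpt* and *Efemp1* together, and *Tagln*, *Acta2*, *Myl9* and *Tnc* increase gradually toward the right.

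Few cells carried many genes of the first end. *Cd34*, a sialomucin of progenitor and connective tissue cells, was read in 25 and 31 members, with lowest, median and highest levels of 0, 0 and 10.82 in tumor 1 and 0, 0 and 10.87 in tumor 2. *Ly6c1*, a surface antigen, was read in 34 and 32 and *Pi16*, a peptidase inhibitor, in 64 and 42 members, with a level of 4.26 and 3.22. The pairwise correlation was 0.39 and 0.43 for *Pi16* and *Cd34* and 0.43 and 0.61 for *Pi16* and *Ly6c1*. Of the 5 genes *Pi16*, *Cd34*, *Ly6c1*, *Dpt* and *Efemp1*, all reached an RPKM of 1 in 5 and 4 members, 4 in 7 and 5, and none in 16 and 26. These 5 were picked after their values were seen.

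Of the whole list of 16 resident fibroblast genes, 10 of the 15 compared were at least 4-fold higher in the members of both tumors (median log2 ratio 3.38), and few cells carried many of them. At least 10 of the 16 reached an RPKM of 1 in 10 and 9 members and in 0 and 0 other wells, while at least 9 did in 14 and 17 members and at least 11 in 8 and 4. The mean level of the list had a median of 2.19 and 2.09 and a highest value of 8.41 and 7.97. Its rarest genes moved with *C3*, the central component of complement. *Dpp4*, a surface peptidase, was read in 8 and 2 members and *Sema3c*, a secreted semaphorin, in 8 and 9. The Spearman correlation with *C3* was 0.57 and 0.37 for *Dpp4* and 0.57 and 0.37 for *Sema3c*, and *C3* and complement factor B (*Cfb*) had 0.36 and 0.42. With so few cells reading them, these values rest on a handful of cells.

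The second end held genes of contraction that moved together across the members. The Spearman correlation was 0.64 and 0.63 for *Acta2* and *Tagln*, 0.54 and 0.69 for *Acta2* and *Myl9*, and 0.45 and 0.55 for *Tagln* and *Myl9*. *Acta2* levels ran from lowest through median to highest as 0, 6.56 and 11.39 in tumor 1 and 0, 6.39 and 11.98 in tumor 2, and 31 and 31 members were at or above 8. *Acta2* and *Pi16* had correlations of -0.24 and -0.36, and *Myl9* and *Pi16* -0.38 and -0.42. *Apod* went against these genes, with correlations of -0.30 and -0.39 for *Acta2*, -0.25 and -0.37 for *Tagln* and -0.29 and -0.37 for *Myl9*. Reads per cell had correlations of 0.16 and 0.15 with *Acta2* and 0.054 and 0.17 with *Pi16*.

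*Tnc*, the matrix protein tenascin C, was read in 54 and 66 members at 3.27 and 4.13, and in the other wells its level was 1.55 and 1.51. Its correlation was 0.29 and 0.33 with *Mmp13*, 0.32 and 0.22 with *Spp1* and -0.48 and -0.27 with *Cygb*. *S100a4*, a calcium-binding protein once used as a general fibroblast marker, was read in 54 and 63 members at 3.85 and 6.00, and in 42.5 and 39.5% of the other wells. Its correlation with *Acta2* was 0.36 and -0.081, of opposite sign in the 2 tumors. *Mme*, the surface peptidase CD10, was read in 33 and 38 members at 1.63 and 1.89 and in 5.09 and 5.47% of the other wells. Between *Mme* and *Cd34* the correlation was -0.14 and 0.083.

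Component 4 had *Fos*, *Dusp1*, *Cyr61*, *Zfp36*, *Ctgf*, *Ier3*, *Errfi1*, *Anxa3*, *Btg2* and *Id3* at one end. Of these *Fos*, *Dusp1*, *Zfp36* and *Btg2* are on the immediate early list, genes that cells switch on soon after a stimulus. Its scores went with reads per cell (0.46 and 0.48) and detected genes (0.53 and 0.59). *Fos*, a subunit of AP-1, was read in 94 and 86 members at 8.73 and 8.31, beside 9.12 and 8.77 in the other wells, and its level had correlations of 0.36 and 0.36 with reads. The first 3 components kept weights correlated at 0.71 or more with those given above under every alternative tried, whereas for component 4 the correlation was 0.68 with 1000 genes, 0.61 on thinned counts and 0.33 when members under 100000 reads were left out.

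A few members carried many interferon response genes. At least 10 of the 14 genes reached an RPKM of 1 in 7 and 7 members, at least 9 in 9 and 12 and at least 11 in 5 and 5. Among the other wells at least 10 did in 2 and 10. The mean level of the list had a median of 2.10 and 1.84 and a highest value of 7.40 and 8.08. *Ifit1*, *Ifit3* and *Isg15*, effectors of the antiviral response, moved together, with correlations of 0.58 and 0.40 for *Ifit1* and *Ifit3*, 0.36 and 0.35 for *Ifit1* and *Isg15* and 0.55 and 0.43 for *Ifit3* and *Isg15*, and *Ifit1* was read in 7 and 12 members only.

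The 250 bases before the start of these 3 genes are shown because their levels move together across the members. Capitals mark the core of the interferon-stimulated response element (TTTC, any 2 bases, and TTTC again), searched on both strands. The sequences are from RefSeq (GRCm38.p6) and run 5′ to 3′ in the direction of the gene. *Ifit1* is on the plus strand at chr19:34640639-34640888, *Ifit3* on the plus strand at chr19:34583279-34583528 and *Isg15* on the minus strand at chr4:156200819-156201068.
Ifit1: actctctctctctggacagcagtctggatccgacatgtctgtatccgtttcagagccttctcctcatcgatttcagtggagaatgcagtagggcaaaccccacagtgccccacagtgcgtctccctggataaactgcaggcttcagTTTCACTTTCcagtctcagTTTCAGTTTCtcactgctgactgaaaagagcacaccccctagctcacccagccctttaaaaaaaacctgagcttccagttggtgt
Ifit3: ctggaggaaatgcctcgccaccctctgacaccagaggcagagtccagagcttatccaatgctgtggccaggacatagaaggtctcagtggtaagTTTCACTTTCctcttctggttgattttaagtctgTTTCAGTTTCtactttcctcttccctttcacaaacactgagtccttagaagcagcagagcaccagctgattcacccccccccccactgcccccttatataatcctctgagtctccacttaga
Isg15: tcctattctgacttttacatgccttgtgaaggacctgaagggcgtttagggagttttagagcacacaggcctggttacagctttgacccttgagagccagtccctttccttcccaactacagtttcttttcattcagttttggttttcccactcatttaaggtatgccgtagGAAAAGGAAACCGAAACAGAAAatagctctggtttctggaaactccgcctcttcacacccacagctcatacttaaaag
*Ifit1* and *Ifit3* hold 2 matches each and *Isg15* holds 3 that overlap, all of the last on the opposite strand. Of all 32851 windows, 2.98% hold a match. The motif was chosen after the values were seen and draws no link to a factor.

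Members with a high mean over markers of other CAF classes were few, whereas single markers were read widely. Of the vascular markers, *Rgs5* was read in 91 and 79 members, at 3.51 and 3.04 beside 11.78 and 11.29 in the other wells. Of 10 dCAF-like markers, named for CAFs with features of development, *Trf* was read in 38.5 and 53.3% of the members. In the other wells it was read in 19.3 and 43%. A mean of at least 3 over these 10 markers was found in 3 and 2 members. The highest mean in any member was 7.64 and 3.72, and the median 0.18 and 0.71. Without these cells, a choice made after the data were seen, the variable genes numbered 1409 in place of 1546. Without the 12 members with V of at least 4 they numbered 1565.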

How the data were processed

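Single cells of 2 tumors, 1 plate each, were profiled by Smart-seq2. Per the methods of the study, the authors aligned 43 bp single-end reads to mm10 with STAR, quantified RefSeq genes and left out doublets at the sort. The deposited counts are whole reads per gene, for 24490 mouse genes and 92 ERCC spike-ins. The RPKM values were computed by the authors with rpkmforgenes per kilobase of gene model and library and were not changed here except to log2(RPKM + 1). Members and gene lists were chosen with earlier results of these data known. Groups were summed per tumor for log2 ratios of CPM (1 CPM added, mean RPKM of at least 1), with no test. Variation between members was tested within each tumor by the chi-square test against spike-in noise (genes with a mean of at least 1 read, spike-ins of at least 5, minimum biological CV of 0.5, Benjamini-Hochberg adjusted p of at most 0.01). Principal components used the 500 most variable genes. The text names the 20 most abundant genes, the 15 highest and 10 lowest ratios, the 25 most variable genes, up to 5 abundant and 3 variable genes of each list and up to 10 genes at each end of a component. *Col18a1*, *Nid2*, *Dpp4*, *Ifit3*, *Ptprc* and *Vim* were named outside this rule, after their values were seen. Depth per cell is given above and limits genes of few reads. PCR reads carried no molecular identifiers. All wells of a tumor share 1 animal and 1 plate, so that p-values measure the spread between cells only. Correlations across cells are Spearman correlations, given without a test. Some genes of the lists are not reported here.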

Additional observations from a re-analysis of the deposited data

How the results depend on the processing

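The number of members stayed within 1.5 times under every alternative rule tried. As shares of the genes compared, those 4-fold higher and lower came to 5.74% and 1.96% with spike-in totals as library size and to 2.37% and 1.19% as a difference of mean log2(RPKM + 1), which kept 39.3% of the higher and 25.9% of the lower calls, and the lower ones to 2.01% with 5 CPM added, against 3.63% and 3.88%. Without the filter on low values, the higher and lower genes came to 2.12% and 1.91% of a larger set of genes, and every call was kept. With 1 tumor left out, the lower ones ranged from 5.7% to 5.85%. The higher genes made up 48.3% of calls, but 57.1% with TMM factors, 74.5% with spike-in totals, 56.6% with 5 CPM added and 66.5% as a difference of mean log2 values. As shares of the genes tested in each setting, variable genes came to 8.1% after thinning (of 6396 genes), 21.8% at a mean of at least 10 reads (of 3971), 6.95% at a minimum biological CV of 1 and 8.19% without the highest cell of each gene, against 15.4%, and ranged from 26.3% to 33.3% with 1 tumor left out. Of the 25 genes first in the test of variation, 22 were called without the highest cell of each gene (not *Chil1*, *Chad* and *Reg1*), and all that were still tested were called after thinning (24), at a mean of at least 10 reads (21) and without the dCAF-like members (23). *Rgs5* was not called without members with V of at least 4. Component 1 held 9.56% of the variance with 250 genes, 7.45% with 1000, 7.35% on thinned counts, 7.83% without members with V of at least 4 and 8.19% with members of at least 100000 reads, a choice made after the data were seen, against 8.64%, and 9.81% to 10.4% in 1 tumor alone. The causes were not tested. Log2 ratios were recomputed for the 15 highest and 10 lowest genes only, and none of those 25 reversed, while 10 were short of 4-fold in at least 1 tumor as a difference of mean log2 values. Members and other wells were paired by tumor, as the ratios were taken within each of the 2 tumors. No paired test was run, because the rule had divided the wells. The replicate numbers only name wells.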
